A study of Mus musculus with 6 samples.

Results

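The 9 genes described here encode the MiT/TFE transcription factors (Mitf, Tfeb, Tfe3 and Tfec) and 5 proteins that control where those factors sit in the cell: folliculin (Flcn), its partners Fnip1 and Fnip2, and the small GTPases Rragc and Rragd. They were found by symbol in a table of 49492 gene rows, and all 9 passed the filter on low counts that left 15741 genes for testing. The study measured mRNA in a mouse macrophage line, RAW264.7. The 3 libraries of the Ep300 siRNA group came from cells given 50 nM of an siRNA against Ep300, and the 3 libraries of the control siRNA group from cells given a control siRNA at the same concentration, with riboFECT CP as the transfection reagent and RNA taken after 48 h in both. The labels call the control cells wild type and name no other allele or agent. Whether replicate libraries were grown as separate cultures is not stated, so the p-values reflect the spread among these 6 samples alone, which may be technical.

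MiT/TFE factors are basic helix-loop-helix leucine zipper proteins that bind E-box sequences near genes for lysosomal enzymes, lysosomal membrane proteins and autophagy. When amino acids are plentiful, folliculin with an FNIP partner acts on Rag C or Rag D at the lysosome, the Rag heterodimer brings Tfeb and Tfe3 to mTORC1, and the phosphorylated factors are held in the cytosol. Loss of folliculin or of its partners lets Tfeb and Tfe3 into the nucleus. In osteoclasts, which macrophage precursors can form, Mitf and Tfe3 drive genes of bone resorption. Transcript counts report none of these steps of localisation, only the supply of mRNA for each protein.

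Total counts ran from 29993567 to 37132333 in the Ep300 siRNA libraries and from 35930658 to 45377510 in the control siRNA libraries. Libraries of the same group differed by more than sampling noise, with chi-square values of 9.19 to 32.9 for each degree of freedom, and each was kept as a replicate. Ep300 averaged 55.0 ± 3.94 CPM after Ep300 siRNA and 113.5 ± 6.02 CPM after control siRNA (CPM, counts relative to library size after TMM scaling; SD, n = 3 each), a log2 fold change of -1.04 ± 0.07 (SE; edgeR adjusted p = 3.62e-05) in the targeted gene. Ep300 siRNA replicate 1 stood apart from the other libraries, at -29.74 on the first principal component where replicates 2 and 3 lay at -13.84 and -8.88 and the controls at 16.82 to 18.75, and with 5823.1 CPM of Gm42418, a gene overlapping ribosomal RNA, against 1327.2 to 2173.7 CPM in the other 5 libraries. Of 10 macrophage markers 9 were high enough to test, and their summed level, most of it Lyz2, was 11050.1 to 11998.7 CPM in Ep300 siRNA libraries and 9780.5 to 11433.8 CPM in control siRNA libraries. None of the 9 passed edgeR's adjusted p, but unadjusted at 0.05 Cd14 was higher (log2 fold change 0.25 ± 0.07, SE) and Csf1r (-0.24 ± 0.07), Adgre1 (-0.23 ± 0.07) and Fcgr1 (-0.36 ± 0.15) were lower. DESeq2 and limma-voom each called 1 marker as a rise and 1 as a fall, and the part of these markers in the results below was not tested. Melanocyte markers, checked because Mitf is best known from pigment cells, summed to at most 1.54 CPM in Ep300 siRNA libraries and 1.84 CPM in control siRNA libraries, with Tyrp1, Dct and Mlana at 0 counts in all 6. The 18 markers of other cell types summed to 5.6 to 7.03 CPM in Ep300 siRNA libraries and 5.05 to 6.27 CPM in control siRNA libraries, with Epcam, Cd3g and Mcpt4 at 0 in all 6.

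Promoter sequence was available for all 9 genes (RefSeq, GRCm38.p6; 14 windows, each from 250 bases before to 50 bases after an annotated start). Because MiT/TFE factors are known to bind promoters of their own regulators, the windows were searched on both strands for the E-box CACGTG, for its longer form TCACGTG, which contains it, and for TCATGTG, the core of the M-box that Mitf binds in pigment genes. The core TGACGT of the cyclic AMP response element, bound by CREB, a partner of p300, was added after the fold changes were known. No link between its matches and those changes was tested. CACGTG and TCACGTG were found in the same 2 genes, Fnip1 and Rragc, TCATGTG in none of the 9, and TGACGT in Mitf and Flcn. In the tests below Mitf and Fnip2 fell and Flcn was not called, while the Fnip2 window held no match. Counted in the same way, by gene, 8.09% of the 27025 genes in the table held CACGTG in a window, 4.29% held TCACGTG, 4.31% held TCATGTG and 8.37% held TGACGT. Counted by window, the shares of 32851 were 7.15% for CACGTG, 3.77% for TCACGTG, 3.77% for TCATGTG and 7.51% for TGACGT. The 4 stretches are shown so that the matched letters can be read beside the values that follow, in capitals for the matched bases, with TCACGTG read on the other strand as CACGTGA and with overlapping TGACGT matches of both strands joined.
Fnip1 (chr11:54438084-54438130, plus strand, match from -75, counted from the RefSeq start): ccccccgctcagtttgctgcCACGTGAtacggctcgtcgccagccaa
Rragc (chr4:123917301-123917347, plus strand, match from -112): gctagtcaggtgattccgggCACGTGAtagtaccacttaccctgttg
Mitf (chr6:97991610-97991657, plus strand, match from -153 of the third of its annotated starts, within an intron of longer Mitf transcripts): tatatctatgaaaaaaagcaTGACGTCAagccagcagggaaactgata
Flcn (chr11:59810061-59810108, minus strand, match from -49, within an exon of the neighbouring gene Gm16062): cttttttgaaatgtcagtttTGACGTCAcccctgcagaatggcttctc
A match is a run of letters and not a measured binding site. The exon of Gm16062 was found by its overlap with the printed Flcn stretch, and whether it covers the whole stretch or the match was not checked. The windows at the other annotated starts of Mitf held no match to any of the searched runs. The count table does not separate transcripts, so the reads of Mitf cannot be assigned to any of its starts.

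Of the 9 genes, 2 fell after Ep300 siRNA, Mitf and Fnip2, and none rose (edgeR adjusted p; 0 rose at an unadjusted p under 0.05, and 0 by DESeq2 or limma-voom). Over all genes tested, 4.02% fell and 2.76% rose, and 6.78% were called in either direction. The 2 genes that fell were also the 2 of 9 whose groups did not overlap, a pattern seen in 27.5% of all genes tested. Genes called as falls over the whole table stood at a median of 0.748 of their control level, and the falls of Mitf and Fnip2 were both smaller than that. In bulk RNA, a lower level in every cell and a smaller share of cells expressing the gene cannot be told apart.

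**Figure D1:**
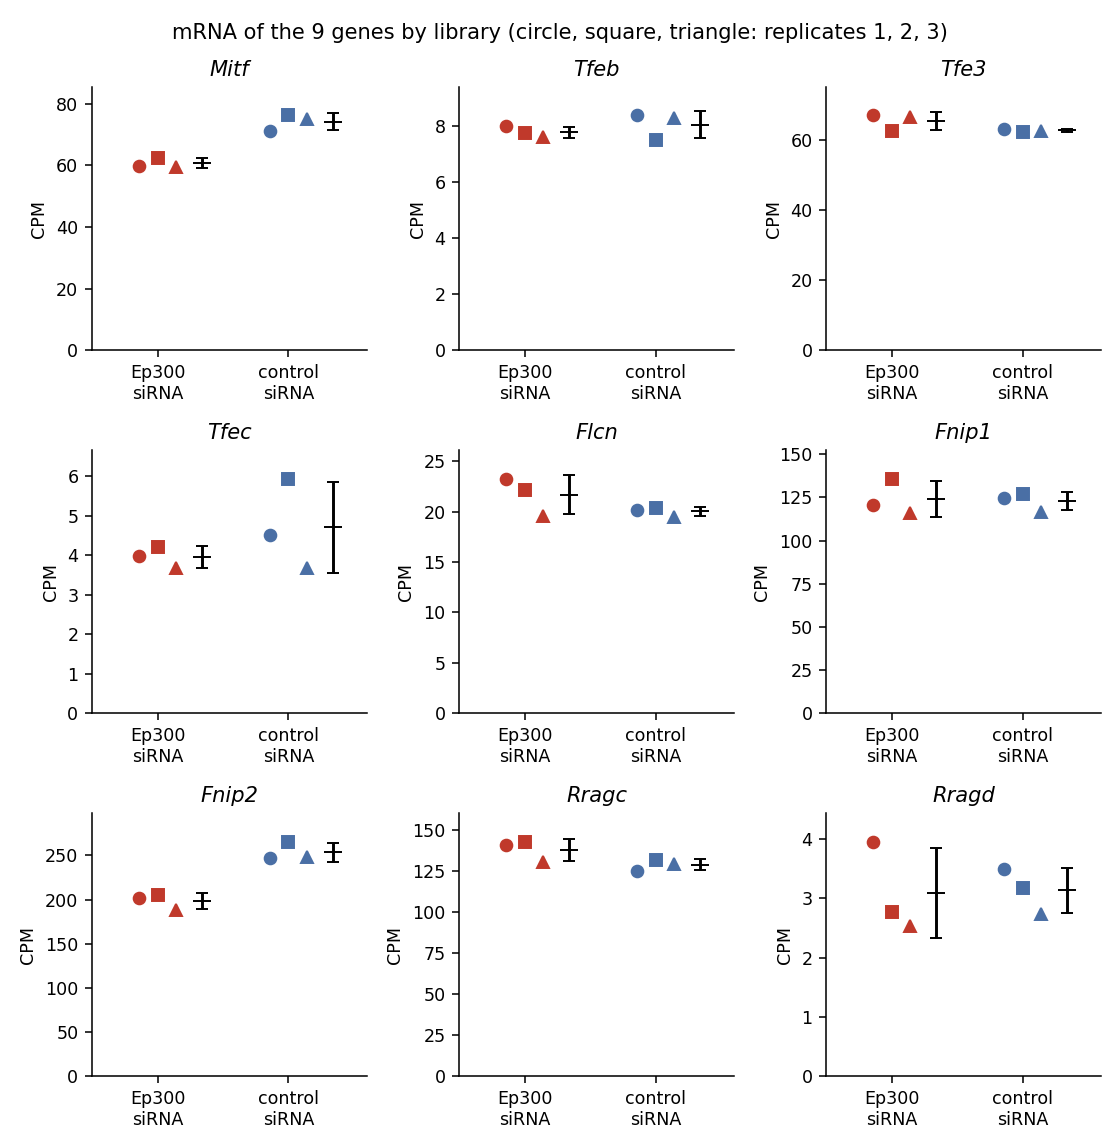
CPM (TMM-scaled, linear axes from 0) of each gene in 6 libraries, with Ep300 siRNA in red and control siRNA in blue, a symbol per replicate and a black bar for mean ± SD (n = 3). Mitf (59.6 to 62.5 CPM after Ep300 siRNA, 71.0 to 76.2 CPM after control siRNA) and Fnip2 (187.7 to 205.3 CPM after Ep300 siRNA, 246.5 to 265.6 CPM after control siRNA) have separate groups, and the other 7 genes overlap.

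Among the transcription factors, Mitf (GRCm38 chromosome 6, 97807052 to 98021349, plus strand) gave 59.8, 62.5 and 59.6 CPM in Ep300 siRNA replicates 1, 2 and 3, against 71.0, 76.2 and 75.1 CPM in control siRNA replicates 1, 2 and 3. All 3 Ep300 siRNA libraries lay below all 3 controls, as they did for 14.4% of genes tested. The mean was 60.7 ± 1.61 CPM after Ep300 siRNA and 74.1 ± 2.76 CPM after control siRNA (SD, n = 3 each), 0.819 times as much after Ep300 siRNA as after control siRNA (log2 fold change -0.29 ± 0.06, SE; 95% interval -0.42 to -0.16; edgeR adjusted p = 0.0135). The fall was seen under all 10 other settings of scaling, filter, tool, block and row choice (log2 fold change -0.32 to -0.28). It lost its call without Ep300 siRNA replicate 1 (edgeR adjusted p = 0.0506), Ep300 siRNA replicate 3 (0.0584), control siRNA replicate 2 (0.0762) or control siRNA replicate 3 (0.0593), at log2 fold changes of -0.31 to -0.26 over the 6 omissions.

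Tfe3 (chromosome X, 7762560 to 7775202, plus strand), the factor that acts beside Tfeb on lysosomal genes, gave 67.0, 62.5 and 66.6 CPM after Ep300 siRNA, against 63.2, 62.3 and 62.6 CPM after control siRNA. The groups overlapped, with Ep300 siRNA replicate 2 inside the range of the controls. The log2 fold change stood at 0.06 ± 0.06 (SE; edgeR adjusted p = 0.596), and the 95% interval of -0.07 to 0.19 corresponds to 0.956 to 1.14 times the control level. Mitf and Tfe3 were measured at similar counts, 1753 to 3286 a library for Mitf and 1965 to 2928 for Tfe3.

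Tfeb (chromosome 17, 47737030 to 47792419, plus strand), the factor best known for switching on the lysosomal gene network, was measured at a lower count. It gave 7.98, 7.73 and 7.59 CPM in the Ep300 siRNA libraries, against 8.36, 7.47 and 8.26 CPM in the control siRNA libraries. Control siRNA replicate 2 held the lowest of the 6 values and control siRNA replicate 1 the highest. The 95% interval of the log2 fold change, -0.05 ± 0.10 (SE), was -0.27 to 0.17 (edgeR adjusted p = 0.824). Tfec (chromosome 6, 16833373 to 16898441, minus strand), a family member expressed mainly in the myeloid lineage, gave 3.99, 4.21 and 3.67 CPM after Ep300 siRNA, against 4.51, 5.94 and 3.67 CPM after control siRNA. Control siRNA replicate 2 was the high library for Tfec, and control siRNA replicate 3 was level with the lowest Ep300 siRNA library. The Tfec log2 fold change of -0.25 ± 0.18 (SE; edgeR adjusted p = 0.453) had a 95% interval of -0.63 to 0.14, and was -0.04 without control siRNA replicate 2. It was -0.39 without control siRNA replicate 3. The interval, at 117 to 213 counts a library, holds both no change and a fall of the size seen for Mitf.

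**Figure D2:**
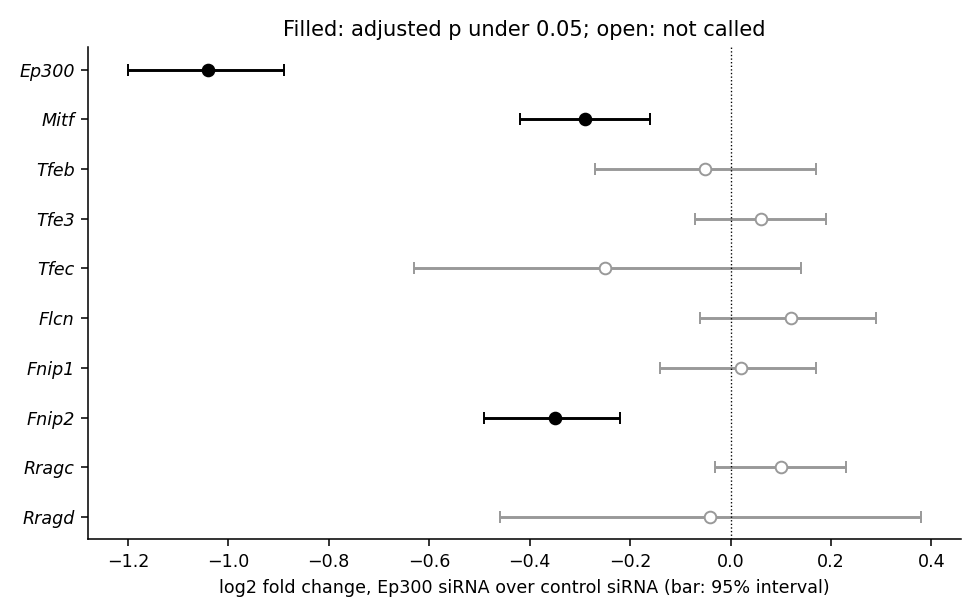
Log2 fold change of Ep300 and of the 9 genes, Ep300 siRNA over control siRNA, with the 95% interval from edgeR (3 libraries per group) and filled symbols for an adjusted p under 0.05. Ep300 (-1.04), Mitf (-0.29) and Fnip2 (-0.35) are filled, and the intervals of Tfec and Rragd are the widest.

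To compare levels between genes, CPM was divided by the summed exon length of each gene in GENCODE M21. On that scale Mitf was the most abundant factor, at 9.79 ± 0.26 CPM per kb after Ep300 siRNA and 12.0 ± 0.446 CPM per kb after control siRNA, followed by Tfe3 (7.06 ± 0.268 after Ep300 siRNA and 6.77 ± 0.0498 after control siRNA; SD, n = 3 each). Tfeb was much lower, at 1.37 ± 0.0353 after Ep300 siRNA and 1.42 ± 0.0858 after control siRNA, and Tfec lowest, at 0.708 ± 0.0485 after Ep300 siRNA and 0.841 ± 0.205 after control siRNA. These 4 did not overlap with each other over the 6 libraries. Mitf made up 50.8%, 53.2% and 51.2% of the summed level of the 4 factors in the Ep300 siRNA libraries, against 55.7%, 57.4% and 57.7% in the control siRNA libraries. The share of Tfe3 was 38.1%, 35.6% and 38.2% in the Ep300 siRNA libraries, against 33.2%, 31.4% and 32.2% in the control siRNA libraries. Shares must sum to 100%, so a lower share of Mitf raises the others by construction. The summed level itself ran from 18.8 to 19.0 CPM per kb in the Ep300 siRNA libraries and from 20.6 to 21.4 CPM per kb in the control siRNA libraries. With the longest transcript in place of the exon length, Mitf made up 45.6% after Ep300 siRNA and 50.7% after control siRNA. Shares and summed levels were not tested.

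**Figure D3:**
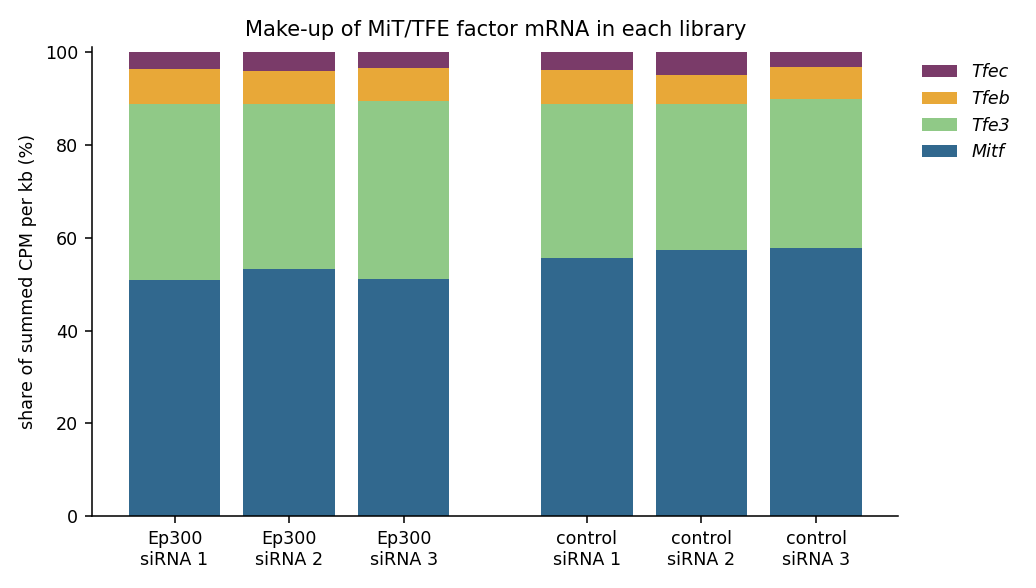
Share of each MiT/TFE factor in their summed level (CPM per kb of exon, in percent) in the 3 Ep300 siRNA libraries and the 3 control siRNA libraries. Mitf takes 50.8% to 53.2% after Ep300 siRNA and 55.7% to 57.7% after control siRNA, and Tfeb and Tfec together form the thin upper bands.

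In the folliculin group, Fnip2 was the gene that fell. Fnip2 (chromosome 3, 79455974 to 79567796, minus strand) encodes a partner with which folliculin can act on Rag C and Rag D. It gave 202.0, 205.3 and 187.7 CPM in the Ep300 siRNA libraries, against 246.5, 265.6 and 248.1 CPM in the control siRNA libraries, with no overlap. Its mean was 198.3 ± 9.32 CPM after Ep300 siRNA and 253.4 ± 10.6 CPM after control siRNA (SD, n = 3 each). Relative to control siRNA this was 0.783 times (log2 fold change -0.35 ± 0.06, SE; 95% interval -0.49 to -0.22; edgeR adjusted p = 0.0067). The call held in all 10 other settings and in the 6 fits that each omitted 1 library, where the highest edgeR adjusted p was 0.0481, without control siRNA replicate 2. Without Ep300 siRNA replicate 1, the library that stood apart, the log2 fold change was -0.36 (edgeR adjusted p = 0.0192).

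Its paralog Fnip1 (chromosome 11, 54438199 to 54518235, plus strand), which can take the same place beside folliculin, gave 120.6, 136.0 and 115.9 CPM after Ep300 siRNA, against 124.9, 126.8 and 116.8 CPM after control siRNA. The lowest and the highest of the 6 values were both Ep300 siRNA libraries. The log2 fold change came to 0.02 ± 0.07 (SE), with a 95% interval of -0.14 to 0.17 (edgeR adjusted p = 0.929). Flcn (chromosome 11, 59791408 to 59810016, minus strand), the shared partner, gave 23.3, 22.2 and 19.6 CPM after Ep300 siRNA, against 20.2, 20.4 and 19.5 CPM after control siRNA. The groups overlapped through Ep300 siRNA replicate 3, and the log2 fold change of 0.12 ± 0.08 (SE) had a 95% interval of -0.06 to 0.29 (edgeR adjusted p = 0.45).

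Of the Rag genes, Rragc (chromosome 4, 123917446 to 123936997, plus strand) was the most abundant of the 9 genes per kb of exon, at 41.3 ± 2.04 CPM per kb after Ep300 siRNA and 38.6 ± 0.99 CPM per kb after control siRNA (SD, n = 3 each). In CPM it gave 140.9, 143.1 and 130.4 in the Ep300 siRNA libraries, against 125.3, 131.9 and 129.4 in the control siRNA libraries. Replicates 1 and 2 of Ep300 siRNA lay above every control and replicate 3 among them, at a log2 fold change of 0.10 ± 0.06 (SE) with a 95% interval of -0.03 to 0.23 (edgeR adjusted p = 0.367). An exon of 4930535I16Rik, on the other strand, covers 264 bases of its exons (7.9%), and no source used here gives the strand setting, so reads of that stretch cannot be assigned with certainty. Rragd (chromosome 4, 32983037 to 33022180, plus strand), which in other cells is a well-known target of Tfeb and Tfe3, was the least abundant, with 94 to 162 counts in any library. It gave 3.96, 2.77 and 2.54 CPM after Ep300 siRNA, against 3.50, 3.18 and 2.74 CPM after control siRNA, and the highest and the lowest values both came from Ep300 siRNA libraries. The 95% interval of its log2 fold change, -0.46 to 0.38 around -0.04 ± 0.19 (SE; edgeR adjusted p = 0.936), was the widest of the 9, and the value ranged from -0.24 without Ep300 siRNA replicate 1 to 0.09 without Ep300 siRNA replicate 3.

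Per kb of exon, the order of levels in control siRNA libraries was Rragc, Fnip2, Fnip1, Mitf, Tfe3, Flcn, Tfeb, Tfec and Rragd. Neighbours in that order did not overlap over the 6 libraries except Tfec and Rragd, whose ranges were 0.655 to 1.06 and 0.491 to 0.765 CPM per kb. By exon length the widest step was from Flcn to Tfeb, at 3.27 times in control siRNA libraries. By longest transcript the order was the same, that step was 1.64 times, and Tfec and Rragd did not overlap. Rragc counts were 45.6 times those of Rragd after Ep300 siRNA and 41.3 times after control siRNA.

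Ratios of counts within a library do not depend on scaling between libraries, and 4 such ratios were compared. The log2 ratio of Mitf to Tfe3 was -0.16, 0.00 and -0.16 in the Ep300 siRNA libraries, against 0.17, 0.29 and 0.26 in the control siRNA libraries, a difference of -0.35 with no overlap. Mitf had more counts than Tfe3 in every control library and no more in the Ep300 siRNA libraries. For Fnip1 to Fnip2 the log2 ratio was -0.74, -0.59 and -0.70 after Ep300 siRNA, against -0.98, -1.07 and -1.09 after control siRNA, a difference of 0.37, again with no overlap. Fnip1 counts were thus 0.625 of those of Fnip2 in Ep300 siRNA libraries and 0.485 in control siRNA libraries. Both differences gave p = 0.10 in a two-sided exact permutation test, the smallest p that 3 libraries against 3 can give (0.20 after Benjamini-Hochberg adjustment over the 4 ratios). Each sets a gene called as a fall against a gene not called, so these ratios restate those falls and are not separate evidence. The ratios of Tfec to Mitf (difference 0.06, exact permutation p = 0.80) and of Rragc to Rragd (difference 0.14, exact permutation p = 0.60) overlapped between the groups.

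**Figure D4:**
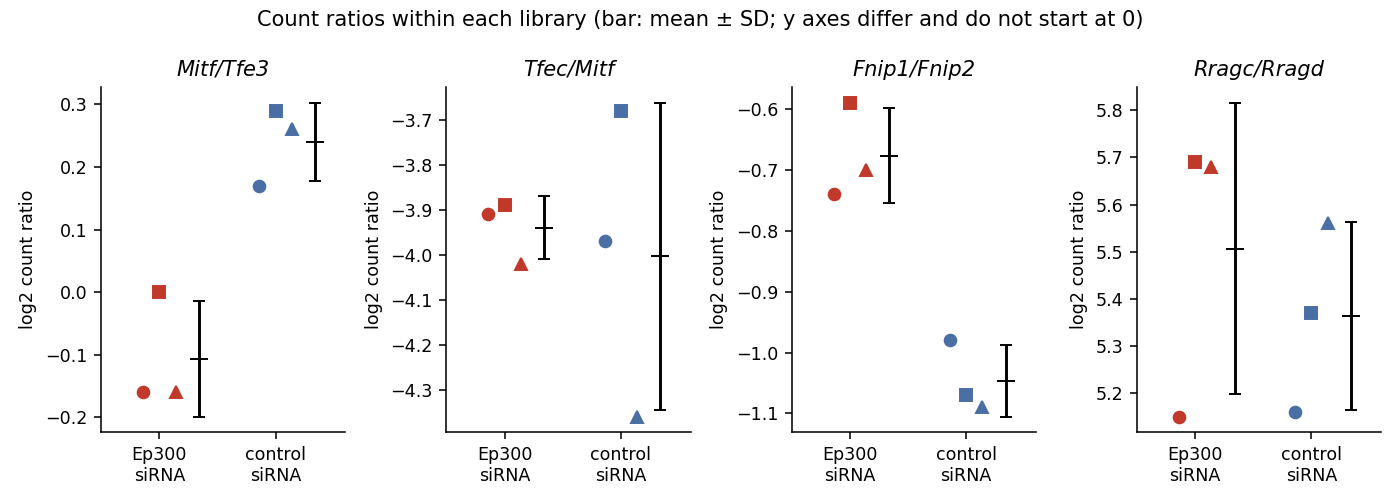
Log2 ratio of counts of paired genes in each library, with Ep300 siRNA in red, control siRNA in blue and black bars for mean ± SD (n = 3; the y axes differ and do not start at 0). The groups are apart for Mitf/Tfe3 (difference -0.35) and Fnip1/Fnip2 (0.37) and overlap for Tfec/Mitf and Rragc/Rragd.

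The genes most like Mitf and Fnip2 over the 6 libraries were sought among 8894 genes with a mean of at least 5 CPM, leaving out predicted genes and pseudogenes, by the root mean square difference of log2 CPM centred on each gene's mean. For Mitf they were Dhrs9 (0.0208), Lrrc41 (0.0253) and Qser1 (0.0254), and for Fnip2 they were Atl2 (0.0286), Utp14b (0.0339) and Shtn1 (0.0355). Mitf and Fnip2 differed from each other by 0.0507, which put Mitf in place 23 among the genes nearest to Fnip2 and Fnip2 in place 79 among those nearest to Mitf. These 6 libraries hold a single contrast, so any gene with a fall of like size and little spread is near both.

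The lists that follow were chosen with earlier results of these data known, so their counts and medians are descriptions and test no theme. Over all genes tested, 2.76% rose and 4.02% fell. The machinery around the Rag GTPases held 1 called gene. Of 24 measured genes for Rag A and Rag B, the Ragulator scaffold, the GATOR and KICSTOR complexes and the amino acid sensors (of 25 listed), 1 rose, Lamtor1, and none fell (edgeR; 2 were lower at an unadjusted p under 0.05, 0 fell by DESeq2 or limma-voom, and 1 fell without control siRNA replicate 1), with a median log2 fold change of 0.07 beside -0.004 over all genes tested. That median was 0.12 without control siRNA replicate 1, 0.11 without control siRNA replicate 3 and 0.04 with library sizes alone. Lamtor1, which anchors Ragulator to the lysosomal membrane, gave 40.2, 34.3 and 37.6 CPM in the Ep300 siRNA libraries, against 30.0, 30.4 and 29.7 CPM in the control siRNA libraries. The groups did not overlap (log2 fold change 0.32 ± 0.07, SE; edgeR adjusted p = 0.0219), but the call was lost without replicate 1 or 3 of Ep300 siRNA or replicate 2 or 3 of control siRNA (edgeR adjusted p up to 0.0714). Of 11 genes of mTORC1, its activator and substrates, and the TSC complex that restrains it, none passed edgeR's adjusted p (3 higher and 1 lower passed unadjusted at 0.05, and 0 by DESeq2 or limma-voom), and the list median was 0.00, or -0.04 to 0.04 with a library omitted. Mtor, the kinase itself, had the smallest p of them, at a log2 fold change of 0.20 ± 0.06 (SE; edgeR adjusted p = 0.0818).

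Of 19 genes for proteins that act on MiT/TFE factors (kinases, calcineurin subunits, phosphoprotein-binding Ywha proteins and Sfn, the lysosomal calcium channel Mcoln1, the ubiquitin ligase Stub1 and an exportin), 1 fell, Xpo1, and none rose by edgeR (6 were higher at an unadjusted p under 0.05, 2 rose by DESeq2 and 0 by limma-voom, 2 without Ep300 siRNA replicate 3 and 1 without control siRNA replicate 1). At the same unadjusted threshold 3 were lower: Xpo1 and the calcineurin genes Ppp3ca and Ppp3r1. Over this list the median was 0.10, and 0.04 without control siRNA replicate 3 or 0.15 without Ep300 siRNA replicate 2 or control siRNA replicate 1. Xpo1 encodes the exportin through which Tfeb leaves the nucleus. It gave 251.2, 284.6 and 276.6 CPM after Ep300 siRNA, against 322.8, 316.6 and 348.5 CPM after control siRNA, without overlap (log2 fold change -0.28 ± 0.07, SE; edgeR adjusted p = 0.0315). That call held only when control siRNA replicate 1 was the library left out (edgeR adjusted p up to 0.125 over the 6 omissions).

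Genes for proteins of the lysosomal lumen, many of them known targets of MiT/TFE factors, had mostly positive fold changes. The list held 31, all tested: enzymes, and also Psap, the precursor of the saposin activators, and Grn, progranulin, which are not enzymes. Of these, 13 rose (41.9%, beside 2.76% of all genes tested), Grn among them, and 1 fell (3.23%, beside 4.02%). Log2 fold changes were positive for 29, beside 7737 of all 15741 genes, and the median was 0.26 beside -0.004. Every other surrounding list except the osteoclast genes also held a larger share of positive values than all genes tested. Positive values made up 19 of 24 in the Rag machinery list, 18 of 22 for autophagy and 14 of 18 for further lysosomal genes. They made up 12 of 18 for the V-ATPase, 12 of 19 for proteins acting on the factors, 6 of 11 for mTORC1 and 0 of 8 for osteoclast genes. The rises were of 1.18 times, for Grn, to 1.41 times, for Naglu (edgeR adjusted p 0.00217 to 0.0413). Naglu, which degrades heparan sulfate, gave 28.9, 30.2 and 28.8 CPM after Ep300 siRNA, against 21.6, 21.1 and 19.6 CPM after control siRNA, with every Ep300 siRNA library above every control (log2 fold change 0.50 ± 0.07, SE; edgeR adjusted p = 0.00217). The log2 fold change was 0.47 ± 0.08 for Gaa, the acid alpha-glucosidase that breaks down glycogen, and 0.35 ± 0.06 for Manba, the lysosomal beta-mannosidase (SE). The enzyme that fell was Asah1, the acid ceramidase, at 110.9, 108.2 and 112.5 CPM in Ep300 siRNA libraries, against 135.8, 139.4 and 130.6 CPM in control siRNA libraries (log2 fold change -0.29 ± 0.06, SE; edgeR adjusted p = 0.0111). The fall of Asah1 lost its call without replicate 2 of either group (edgeR adjusted p up to 0.068). The count of rises was 6 in each fit that omitted replicate 1 or 3 of Ep300 siRNA or replicate 2 or 3 of control siRNA, and 18 by DESeq2.

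Among 18 further lysosomal genes, most of them for membrane proteins, 2 rose and 1 fell. The median was 0.07, and 0.11 without control siRNA replicate 1 or 3 or 0.04 with library sizes alone. Cln3 rose (log2 fold change 0.37 ± 0.07, SE; edgeR adjusted p = 0.0119), as did Lamp2, a major glycoprotein of the lysosomal membrane (0.25 ± 0.07; edgeR adjusted p = 0.043). Lamp2 lost its call in all 6 fits that omitted a library (edgeR adjusted p 0.0506 to 0.145) and with library sizes alone (0.0611), and Cln3 without control siRNA replicate 2 (0.052). Slc36a1, a lysosomal amino acid transporter linked to mTORC1 activation, fell, at 9.45, 9.69 and 9.40 CPM in Ep300 siRNA libraries, against 12.8, 13.2 and 11.9 CPM in control siRNA libraries. Its log2 fold change was -0.41 ± 0.09 (SE; edgeR adjusted p = 0.0185), a call lost without any 1 of the Ep300 siRNA libraries or control siRNA replicate 2 (edgeR adjusted p up to 0.0835).

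Of 18 V-ATPase genes, which acidify the lysosome, 2 rose and 1 fell (4 rose and 2 fell by DESeq2, 2 and 2 by limma-voom). The median was 0.07, and 0.03 without Ep300 siRNA replicate 1, without control siRNA replicate 3 or with library sizes alone. Atp6v0a2, a subunit of the membrane sector, gave 98.0, 99.9 and 94.2 CPM after Ep300 siRNA, against 64.3, 68.5 and 65.6 CPM after control siRNA, with the groups far apart (log2 fold change 0.56 ± 0.06, SE; edgeR adjusted p = 0.000468). Atp6ap1, an accessory subunit, rose by 0.27 ± 0.06 on the log2 scale (SE; edgeR adjusted p = 0.0149), a call lost without control siRNA replicate 2 (edgeR adjusted p = 0.0651). The V-ATPase gene that fell was Atp6v0d2, the isoform used by osteoclasts and macrophages and a target of Mitf in mouse osteoclast precursors. It gave 180.6, 159.7 and 155.5 CPM in Ep300 siRNA libraries, against 248.8, 249.4 and 254.5 CPM in control siRNA libraries (log2 fold change -0.60 ± 0.07, SE; edgeR adjusted p = 0.000661). Both Atp6v0a2 and Atp6v0d2 kept their calls with every library left out in turn and in all 10 other settings. Any link between the falls of Atp6v0d2 and Mitf was not tested.

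Of 22 genes for autophagy and the fusion steps that follow it, 2 rose, Becn1 and Gabarapl2, and none fell by edgeR (1 was lower at an unadjusted p under 0.05, 0 by DESeq2 or limma-voom), with a median of 0.10. Becn1, which starts autophagosome formation, gave 109.2, 104.8 and 107.8 CPM after Ep300 siRNA, against 88.5, 89.2 and 82.2 CPM after control siRNA, with the groups apart (log2 fold change 0.31 ± 0.06, SE; edgeR adjusted p = 0.0101). Gabarapl2, an Atg8-family protein of the autophagosome membrane, had a log2 fold change of 0.35 ± 0.09 (SE; edgeR adjusted p = 0.0413). Its call was kept in only 1 of the 6 omissions of a library (edgeR adjusted p up to 0.129) and was lost with library sizes alone. Of 8 osteoclast genes tested of 10 listed, 5 fell and none rose (edgeR; 0 rose at an unadjusted p under 0.05, by DESeq2 or by limma-voom). The share that fell was 62.5%, beside 4.02% of all genes tested, in a list chosen with earlier results known. The median was -0.78, beside -0.004 over all genes tested, and was -0.52 with the filter of 1 CPM in 3 libraries or -0.53 with halved counts. Mmp9, a matrix metalloproteinase, gave 1.5, 1.38 and 1.35 CPM after Ep300 siRNA, against 2.42, 3.23 and 4.32 CPM after control siRNA, with the groups apart (edgeR adjusted p = 0.00864). The log2 fold change was -1.23 ± 0.23 for Mmp9, -1.10 ± 0.20 for Acp5, the tartrate-resistant acid phosphatase and a target of Mitf and Tfe3 in mouse osteoclasts, and -1.04 ± 0.08 for Car2, a carbonic anhydrase (SE). Whether the fall of Acp5 is tied to that of Mitf was not tested. Genes of the lysosomal lumen, many of them also known targets of MiT/TFE factors, had mostly positive fold changes. The count of falls was 3 when Ep300 siRNA replicate 2 or control siRNA replicate 3 was omitted.

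**Figure D5:**
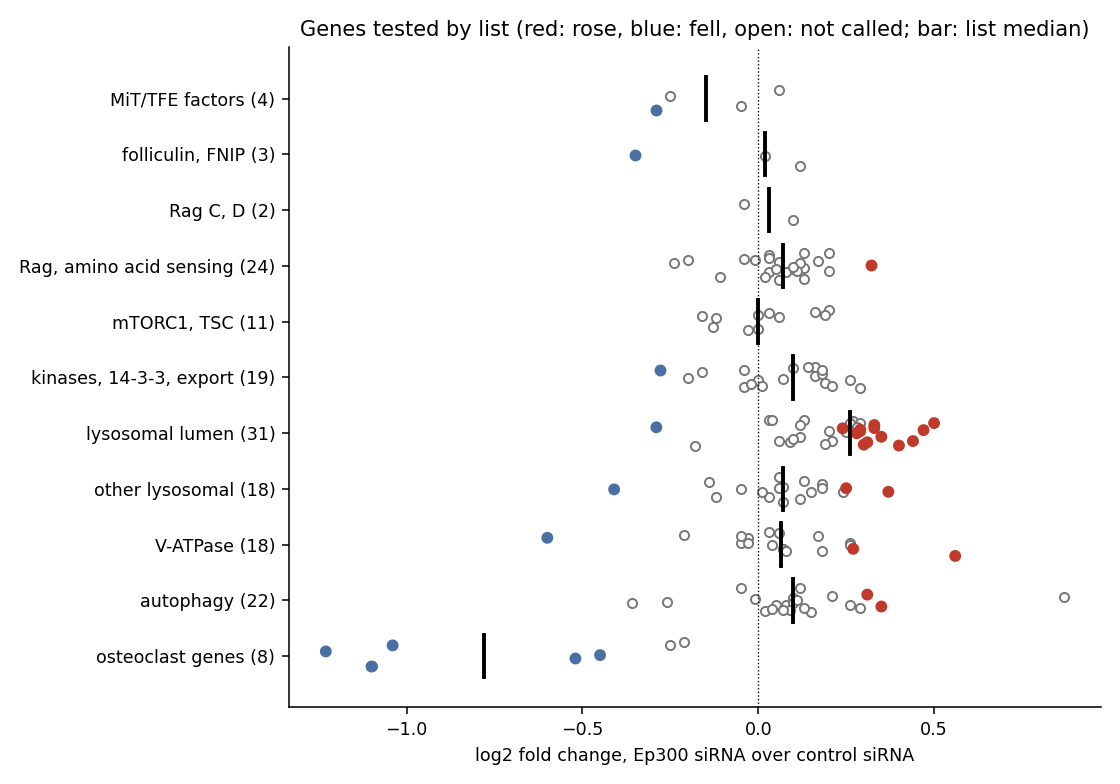
Log2 fold change (Ep300 siRNA over control siRNA) of every tested gene in the 3 member groups and 8 surrounding lists, with the number tested in brackets, red for genes that rose, blue for genes that fell and a bar for the list median. Genes of the lysosomal lumen lie mostly to the right (median 0.26), osteoclast genes to the left (median -0.78), and the MiT/TFE factors and folliculin group hold 1 fall each.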

How the data were processed

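Stranded mRNA libraries were made from 2 µg of total RNA, per the labels' protocols. The authors deposited raw read counts per gene symbol, with 1 column per library matched to samples by name. The submitters' processing notes name GRCm38 and, in no stated order, STAR 2.5.3a, edgeR 3.12.1, featureCounts and fastp 0.23.4. No source used here gives the annotation, strand or multimapping settings. Even numbers made up 79.8% to 80.9% of counts of 1 to 4. Since both mates of a pair may thus have been counted, a test on halved counts was an alternative.

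The 9 genes and all lists were chosen with earlier results of these data known. Genes were tested with edgeR 4.0.16 (R 4.3.3): filterByExpr, TMM, two-sided quasi-likelihood F-test without covariates, Benjamini-Hochberg adjustment over 15741 genes, threshold 0.05. The test was also run on counts simulated as independent libraries with the means and dispersions of these data. That run cannot show how the test behaves if the replicates are technical. Standard errors are the log2 fold change over the square root of F. CPM uses TMM-scaled library sizes. Named genes are Ep300, the 9 genes and, from each list, up to 3 called genes per direction with the smallest p, or the smallest p where none passed. Markers named by that rule are not printed where they did not pass. Castor1 and Castor2 were matched as Gatsl3 and Gatsl2, and Samtor had no row. Alternatives used DESeq2 1.42.0, limma 3.58.1 (voom), other scalings and filters, a replicate block, and each library left out. Lengths and coordinates are from GENCODE M21 (GRCm38).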

Additional observations from a re-analysis of the deposited data

How the results depend on the processing

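Among the 9 genes, Fnip2 was called in every setting run, and Mitf in all but 4 omissions of a library and the threshold of 0.01. The count of called genes among the 9 was 1 to 2 with a library left out and 1 at an adjusted p under 0.01. Over all genes, the 1068 calls (435 rose, 633 fell) became 1721 without the filter on low counts (730 rose, 991 fell), 369 at 0.01 (130 rose, 239 fell), and 490 to 1054 with a library left out (202 to 447 rose, 280 to 607 fell). DESeq2 called 667 rises. The 29 calls over the pathway lists became 10 at 0.01 and 14 to 32 with a library left out, and the 13 rises among genes of the lysosomal lumen became 5 at 0.01 and 6 to 14 with a library left out. The Tfec to Mitf log2 ratio difference of 0.06 ran from -0.11, without control siRNA replicate 3, to 0.23, without control siRNA replicate 2. The causes of these differences were not tested, except that a library left out means fewer samples. Library sizes alone moved the median log2 fold change of all genes to -0.038, against -0.004 with TMM. Tfec and Rragd had 94 to 213 counts a library and the widest intervals of the 9 genes, and depth and replicate spread were not separated there.

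Deviations of same-numbered libraries from their group means correlated at 0.087, 0.02 and -0.047, and those of differently numbered libraries at -0.101 to 0.088. With 3 libraries per group, these values do not settle whether libraries of the same number were paired. With the replicate block, 1357 genes were called (580 rose, 777 fell), against 1068 without it. Among them were 2 of the 9 genes, 36 list genes and 17 genes of the lysosomal lumen that rose.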
